A study of Mus musculus with 9 samples.

Results

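The interleukin-6 cytokine family was followed in mouse embryonic fibroblasts (MEFs) exposed to hyperosmotic stress. Its 10 members here were taken by gene symbol from a table of 35275 genes. They are the ligands Il6, Il11, Lif and Clcf1, the receptor chains Il6st, Osmr and Lifr, the transcription factor Stat3, and the inhibitors Socs3 and Socs2. The rule uses no measured value, but the members were chosen with earlier results of these data known. C57Bl/6 MEFs in serum-containing DMEM were left in iso-osmolar medium (300 mOsm, no sucrose added) or moved for 3 h to medium with 200 mM sucrose (500 mOsm, low-intensity hyperosmotic stress) or 300 mM sucrose (600 mOsm, high-intensity hyperosmotic stress). Each condition gave 3 RNA-seq libraries, and all carry the same strain with no allele or second agent. The labels do not say whether the 3 libraries came from separate cultures, so the p-values measure the spread between these libraries, which may be technical. Whether the MEFs were primary or immortalized is not given in the sources used here.

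Cytokines of this family bind a ligand-specific chain and signal through the shared receptor chain gp130, the product of Il6st. Janus kinases held by gp130 phosphorylate Stat3, which enters the nucleus and induces, among other genes, its own inhibitor Socs3. In fibroblasts, Lif, interleukin-11 and interleukin-6 are known as secreted signals of inflammation and matrix remodelling, and oncostatin M acts on the same cells through a complex of Il6st and Osmr.

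Promoter sequences are shown for the ligands Il6, Lif and Il11 and for Socs3, whose windows held motif matches, because the stress-responsive factors NF-kB and Nfat5 (TonEBP) and the family's own effector Stat3 are known to act through short sequence motifs. The windows are those of RefSeq on GRCm38.p6 and run from 250 bases before to 50 bases after an annotated start, written 5′ to 3′ on the gene's strand, with motif matches in capitals. Of the 10 members, 8 were matched to 10 windows, and Clcf1 and Socs2 were not. The Il6 window is chr5:30012864-30013163 (plus strand), the Lif window chr11:4257318-4257617 (plus strand), the Il11 window at the downstream of its annotated starts chr7:4778092-4778391 (minus strand) and the Socs3 window chr11:117969317-117969616 (minus strand).
Il6 promoter: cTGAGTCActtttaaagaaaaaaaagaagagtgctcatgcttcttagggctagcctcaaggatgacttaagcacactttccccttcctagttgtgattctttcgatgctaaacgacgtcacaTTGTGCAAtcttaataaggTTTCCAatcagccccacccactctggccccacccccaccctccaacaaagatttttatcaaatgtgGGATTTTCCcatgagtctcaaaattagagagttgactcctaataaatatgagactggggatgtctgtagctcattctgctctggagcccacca
Lif promoter: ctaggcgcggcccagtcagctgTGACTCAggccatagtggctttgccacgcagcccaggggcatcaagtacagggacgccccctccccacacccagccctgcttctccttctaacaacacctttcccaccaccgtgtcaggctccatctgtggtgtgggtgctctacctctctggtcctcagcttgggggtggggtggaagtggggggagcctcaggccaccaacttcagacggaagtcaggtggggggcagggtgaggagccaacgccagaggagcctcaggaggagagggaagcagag
Il11 promoter: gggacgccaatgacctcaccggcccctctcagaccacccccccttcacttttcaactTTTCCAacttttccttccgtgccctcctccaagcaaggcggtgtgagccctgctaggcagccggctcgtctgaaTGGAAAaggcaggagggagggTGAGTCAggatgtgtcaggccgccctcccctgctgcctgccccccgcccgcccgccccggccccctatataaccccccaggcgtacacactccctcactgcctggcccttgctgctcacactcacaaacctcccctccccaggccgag
Socs3 promoter: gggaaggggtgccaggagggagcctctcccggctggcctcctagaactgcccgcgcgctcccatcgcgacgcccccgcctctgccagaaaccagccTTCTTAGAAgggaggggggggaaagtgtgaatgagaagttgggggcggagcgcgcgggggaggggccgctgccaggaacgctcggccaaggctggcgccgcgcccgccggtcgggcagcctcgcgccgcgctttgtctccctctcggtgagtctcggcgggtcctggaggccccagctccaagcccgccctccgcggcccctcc

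In the Il6 window the capitals mark, from left to right, an AP-1 match, a C/EBP match, a match to the core of the tonicity element that Nfat5 binds, and an NF-kB match. The Lif window held an AP-1 match. The Il11 window held the tonicity core at 2 places and an AP-1 match, and the Socs3 window held a Stat match that began 154 bases before the start. The motifs were searched on both strands as GGNNTTTCC (NF-kB), TTCNNNGAA (Stat), TGGAAA (tonicity core), TGANTCA (AP-1) and TTGCNNAA (C/EBP), together with the cAMP response element, which matched no member. The NF-kB and tonicity motifs share letters, but no 2 matches in these windows overlapped. Of 32851 mouse promoters of this length, 5.82% held the NF-kB motif, 8.3% the Stat motif, 21.4% the tonicity core, 7.81% the AP-1 motif and 10.8% the C/EBP motif. Osmr held an AP-1 match just after its start, and the windows of Il6st, Lifr and Stat3 held none of the 6 motifs. A match describes letters and is not a measured binding site.

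**Figure D1:**
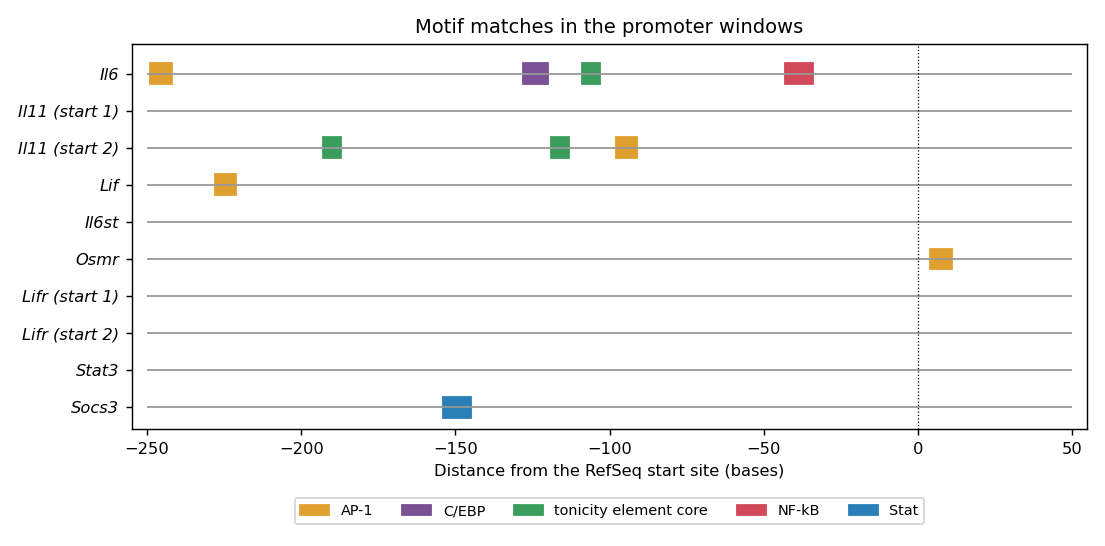
Motif matches (coloured boxes) along the 10 RefSeq promoter windows of the family, with the distance from the annotated start in bases on the horizontal axis and 1 row per window. Il6 carries 4 matches, the downstream Il11 start 3, and Lif, Osmr and Socs3 1 each, while 5 windows carry none.

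The 9 libraries held between 21716042 and 26740832 reads counted on genes, and the TMM scaling factors lay between 0.974 and 1.013. In a principal component analysis the conditions separated and no library stood apart. A gene was tested where it passed edgeR's filter on low counts, which 13082 genes did, and was called where its adjusted p was under 0.05. Fibroblast markers were abundant, with a summed level of 5384 to 6296 FPKM over 11 markers, although Dcn and Lum were at or near 0 in every condition. The 6 macrophage and leukocyte markers that were matched summed to between 15.7 and 28.3 FPKM, most of it Cd14 and Lyz2. Ptprc had 2 reads in iso-osmolar medium, 16 reads at 500 mOsm and 1 read at 600 mOsm. Itgam had 3, 141 and 11 reads in the same order. Summed endothelial markers were 0.211 to 0.265 FPKM in iso-osmolar medium, 3.38 to 3.86 at 500 mOsm and 0.582 to 0.932 at 600 mOsm. Most of the sum was Pecam1 at 500 and 600 mOsm, whereas Cdh5 was the largest part in iso-osmolar medium (mean 0.140 FPKM, Pecam1 0.0816). Summed epithelial markers were 0.104 to 0.278, 1.17 to 1.47 and 0.140 to 0.324 FPKM in the same order. Epcam had at most 2 reads in a condition, whereas Cdh1 had 1, 267 and 7 reads in that order.

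Between 500 mOsm and iso-osmolar medium, the ligands Lif, Il11 and Clcf1 fell and the receptor chain Il6st and the inhibitor Socs3 rose. Of the 9 members tested, 2 were higher and 3 lower, against 28.0% of all genes called in either direction (13.2% higher, 14.8% lower). In 7 members the normalized counts of the conditions did not overlap, as in 40.9% of all genes tested. The median log2 fold change of the tested members was 0.12, and that of all genes tested was 0.01.

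Between 600 mOsm and iso-osmolar medium, the same 3 ligands fell, Il6st fell as well, and Osmr, the signalling chain for oncostatin M, rose. That made 1 member higher and 4 lower, against 35.1% of all genes called (15.1% higher, 20.0% lower). The libraries of 6 members did not overlap (48.4% of all genes), and the median log2 fold change was -0.06, beside 0.01 for all genes.

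Directly between the intensities, Il11, Clcf1, Il6st, Stat3 and Socs3 were lower at 600 than at 500 mOsm and Lif was higher. These 5 lower and 1 higher calls stand beside 29.1% of all genes called (17.2% lower, 11.9% higher). Again 6 members did not overlap (41.5% of all genes), with a median log2 fold change of -0.25 beside 0.01. The comparisons with iso-osmolar medium share their control libraries.

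**Figure D2:**
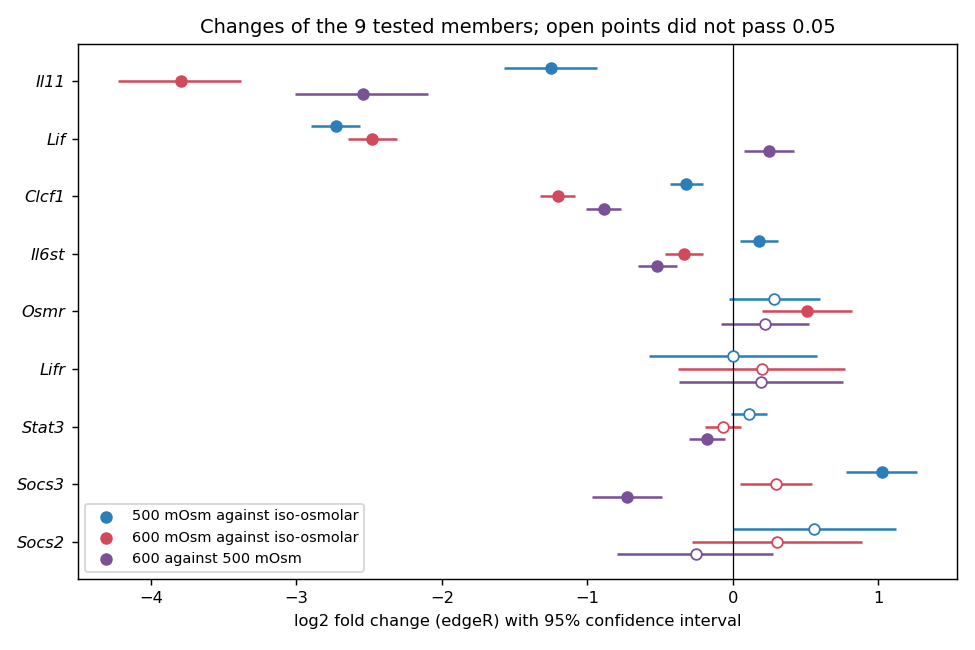
Log2 fold change (horizontal axis) with its 95% confidence interval for the 9 tested members in the 3 comparisons, with filled points for calls under an adjusted p of 0.05 and open points for the rest. The intervals of Il11 and Lif against iso-osmolar medium lie far left of 0, from -4.23 to -3.38 for Il11 at 600 mOsm, while the 3 intervals of Lifr and of Socs2 are wide.

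Il6 (ENSMUSG00000025746, chr5:30013161-30019968, plus strand, mm10), the family's founding cytokine and a marker of inflammatory activation, was close to undetected. Its 9 libraries held 3 reads in all, 1 in an iso-osmolar library, 1 at 500 mOsm and 1 at 600 mOsm. The highest of these values was 0.0378 FPKM, whereas 3 reads, taken as the smallest signal, would have given 0.103 to 0.127 FPKM. Il6 did not pass the filter on low counts and was not tested. A difference between the conditions was not detectable at this depth after 3 h.

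Lif (ENSMUSG00000034394, chr11:4257557-4272514, plus strand), which signals through a complex of Lifr and Il6st, had the highest FPKM of the ligand members in iso-osmolar medium. Clcf1 was close below it (means 32.6 and 29.0 FPKM), and this order depends on the gene lengths deposited with the counts. Its level was 33.7, 32.8 and 31.4 FPKM in iso-osmolar medium, 5.36, 4.23 and 5.17 FPKM at 500 mOsm, and 5.72, 5.79 and 5.83 FPKM at 600 mOsm. Every stressed library lay far below every iso-osmolar library, and the 3 libraries at 600 mOsm were closely spaced just above those at 500 mOsm. At 500 mOsm Lif fell 6.63-fold (log2 fold change -2.73, standard error 0.0775, adjusted p = 8.57e-11), rank 17 from the lowest among the 13082 genes. At 600 mOsm it fell 5.57-fold (-2.48, standard error 0.0765, adjusted p = 4.54e-10), rank 46 from the lowest. In bulk RNA, fewer cells that express Lif and less Lif RNA per cell cannot be told apart. The difference between the intensities was small, 1.19-fold higher at 600 mOsm (log2 fold change 0.25, standard error 0.0796, adjusted p = 0.0312). That call was lost when 500 mOsm replicate 2 (log2 fold change 0.17, adjusted p = 0.0924), 600 mOsm replicate 1 (adjusted p = 0.0675) or 600 mOsm replicate 3 (adjusted p = 0.0887) was left out.

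Il11 (ENSMUSG00000004371, chr7:4773055-4782857, minus strand), a ligand associated with fibroblast activation, fell stepwise with stress intensity. It stood at 7.41, 8.09 and 8.02 FPKM in iso-osmolar medium, 2.95, 3.01 and 3.90 FPKM at 500 mOsm, and 0.393, 0.785 and 0.505 FPKM at 600 mOsm. No library of one condition overlapped another condition, and the reads behind the lowest group were 12, 22 and 17. At 500 mOsm Il11 fell 2.38-fold (log2 fold change -1.25, standard error 0.148, adjusted p = 3.35e-05). At 600 mOsm it fell 13.9-fold (-3.79, standard error 0.195, adjusted p = 3.55e-08), rank 7 from the lowest among the 13082 genes. Between the intensities it was 5.83-fold lower at 600 mOsm (-2.54, standard error 0.211, adjusted p = 2.06e-06). On the log2(FPKM + 1) scale, where the added 1 compresses low levels, the difference at 600 mOsm from iso-osmolar medium was -2.51.

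Clcf1 (ENSMUSG00000040663, chr19:4214238-4223490, plus strand), cardiotrophin-like cytokine factor, acts through Cntfr, Lifr and Il6st. Its level was 28.7, 29.2 and 29.2 FPKM in iso-osmolar medium, 22.5, 23.4 and 23.7 FPKM at 500 mOsm, and 13.2, 12.0 and 12.1 FPKM at 600 mOsm. The conditions again did not overlap, with the larger step between the intensities. Clcf1 fell 1.25-fold at 500 mOsm (log2 fold change -0.32, standard error 0.0529, adjusted p = 0.000554) and 2.3-fold at 600 mOsm (-1.20, standard error 0.0546, adjusted p = 1.15e-08). The difference between the intensities was -0.89 (standard error 0.0545, adjusted p = 1.42e-07).

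Because FPKM is a level per gene length, the 3 detected ligands among the members could be summed. Ctf1, a family ligand outside the members, was left out. It averaged 1.65, 1.75 and 1.83 FPKM with rising osmolarity, above Il11 at 600 mOsm (0.561 FPKM). Lif, Clcf1 and Il11 together amounted to 68.6 to 70.1 FPKM in iso-osmolar medium, 30.7 to 32.8 at 500 mOsm and 18.5 to 19.3 at 600 mOsm, without overlap. Lif made up 45.8% to 48.3% of that sum in iso-osmolar medium, 13.8% to 17.4% at 500 mOsm and 29.7% to 31.5% at 600 mOsm. The share of Clcf1 moved from 41.1% to 42.5% in iso-osmolar medium to 72.3% to 76.4% at 500 mOsm and 64.5% to 68.3% at 600 mOsm. Clcf1 was therefore the most abundant of these ligand transcripts in every stressed library, and the Il11 share was lowest at 600 mOsm, at 2.04% to 4.24%. These shares depend on the deposited gene lengths. For Clcf1 that length (3550 bases) exceeds the GENCODE M21 transcript used below (1847 bases).

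**Figure D3:**
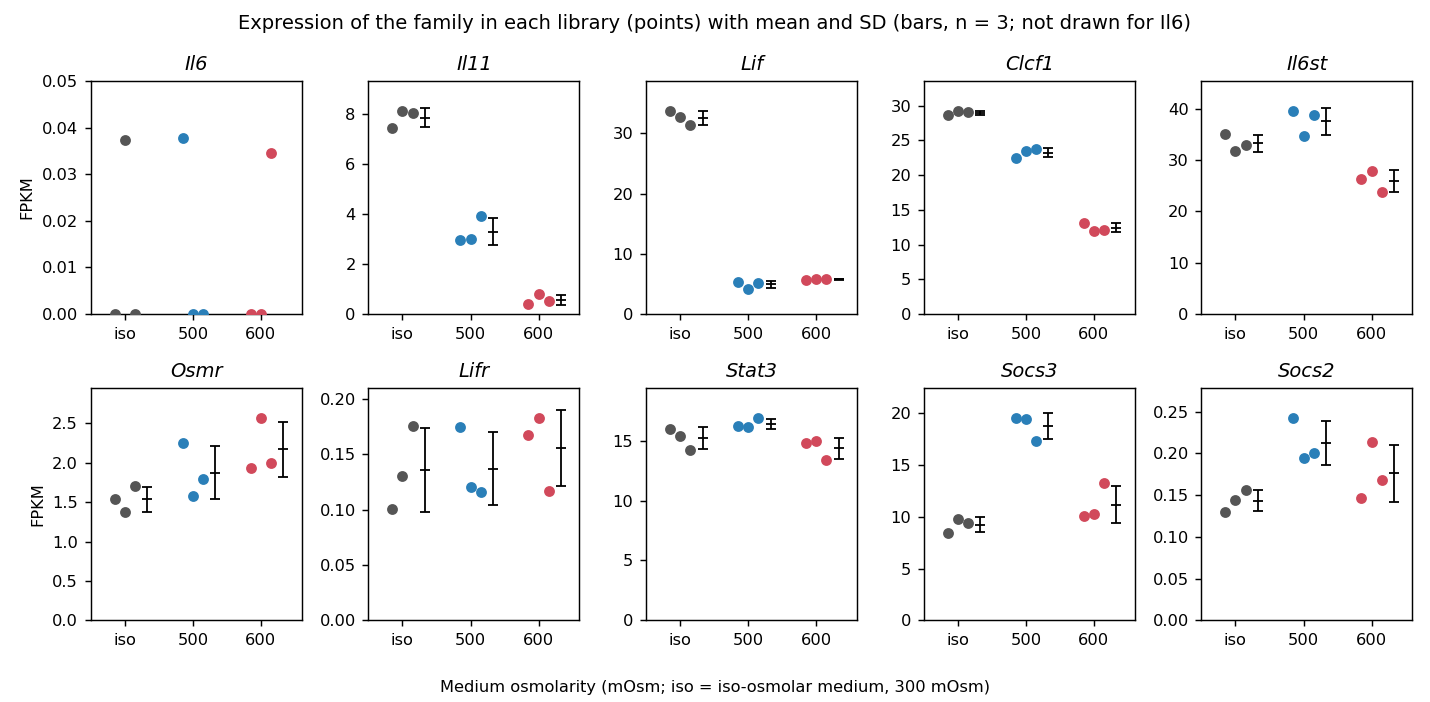
FPKM of the 10 members in each of the 9 libraries (points), by medium osmolarity, with the mean and SD of 3 libraries beside them and each vertical axis starting at 0. The ligand panels step down with stress, from 32.6 FPKM on average to 4.92 and 5.78 for Lif, whereas Socs3 peaks at 500 mOsm and Il6 never exceeds 0.0378 FPKM.

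Transcripts of the ligands and of Socs3 and Socs2 share a sequence feature that the choice of members did not use. The heptamer TATTTAT, the core of AU-rich elements recognized by RNA decay factors such as Zfp36, occurred 6 times in the annotated 3′ untranslated part of Il11, 5 times in that of Lif, 4 times in that of Clcf1, 2 times in that of Socs3 and 1 time each in Il6 and Socs2. It did not occur in Il6st, Lifr, Osmr or Stat3, whose 3′ parts are 5641, 6320, 1794 and 3701 bases long. Among 20624 genes with an annotated 3′ part in GENCODE M21, 27.3% had at least 1 heptamer and 10.2% had 2 or more, with a median 3′ part of 937 bases. Longer 3′ parts hold the heptamer more often. Among genes whose 3′ part was at most 20% shorter or 25% longer, at least 1 heptamer occurred in 29.9% for the length of Il11 (1194 bases), 55.4% for Lif (3180 bases), 23.6% for Clcf1 (922 bases), 34.0% for Socs3 (1474 bases), 36.4% for Il6 (1668 bases) and 29.7% for Socs2 (1163 bases). For the members without a heptamer these shares were 69.6% (Il6st), 73.2% (Lifr), 37.8% (Osmr) and 58.5% (Stat3). The share of genes with repeated heptamers was not matched for length. The transcripts used for Il6 and Il11 (2343 and 1949 bases) are longer than the gene lengths deposited with the counts (1087 and 1267 bases). Those used for Clcf1 and Socs2 (1847 and 2222 bases) are shorter than the deposited lengths (3550 and 4242 bases). In each case the 3′ part may therefore differ from that of the RNA counted. A 30-base window around the densest stretch is shown for the 4 members with repeated heptamers, with the heptamers in capitals and on the gene's strand of mm10. The windows are chr7:4773497-4773526 (Il11, minus), chr11:4270477-4270506 (Lif, plus), chr19:4223404-4223433 (Clcf1, plus) and chr11:117966135-117966164 (Socs3, minus). Of these 4 genes, the 3 ligands were lower at both intensities and Socs3 was higher at 500 mOsm.
Il11 3′ part: cagatctTATTTATTTATTTATtttggtac
Lif 3′ part: gtcTATTTATtactatgtccTATTTATatt
Clcf1 3′ part: aTATTTATTTATttggagatgtTATTTATt
Socs3 3′ part: tgcacataTATTTATATTTATactcagaaa

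Of the receptor chains, Il6st (ENSMUSG00000021756, chr13:112464070-112510086, plus strand), which encodes gp130, was the most abundant receptor chain at 35.1, 31.9 and 32.9 FPKM in iso-osmolar medium, 39.5, 34.7 and 38.8 FPKM at 500 mOsm, and 26.4, 28.0 and 23.7 FPKM at 600 mOsm. The libraries at 600 mOsm lay below all others, and 500 mOsm replicate 2 fell below iso-osmolar replicate 1 in FPKM although not in the normalized counts. Il6st was 1.26-fold lower at 600 mOsm than in the iso-osmolar libraries (log2 fold change -0.34, standard error 0.0605, adjusted p = 0.001) and 1.43-fold lower than at 500 mOsm (-0.52, standard error 0.0605, adjusted p = 3.96e-05). The rise at 500 mOsm was 1.13-fold (0.18, standard error 0.0602, adjusted p = 0.0405). That rise missed the threshold in 9 of 18 alternatives, among them library size alone (adjusted p = 0.069) and the omission of iso-osmolar replicate 2 or 3, 500 mOsm replicate 1 or 3, or 600 mOsm replicate 1 (adjusted p between 0.0614 and 0.144).

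Osmr (ENSMUSG00000022146, chr15:6813577-6874969, minus strand), the chain that pairs with Il6st for oncostatin M, was far less abundant. It stood at 1.54, 1.38 and 1.70 FPKM in iso-osmolar medium, 2.25, 1.58 and 1.8 FPKM at 500 mOsm, and 1.94, 2.57 and 2.00 FPKM at 600 mOsm. The libraries at 500 mOsm overlapped both other conditions, and those at 600 mOsm lay above every iso-osmolar library. Osmr was 1.43-fold higher at 600 mOsm than in the iso-osmolar libraries (log2 fold change 0.51, standard error 0.143, adjusted p = 0.0146), a call that was lost without iso-osmolar replicate 2 (0.45, adjusted p = 0.0566) or 600 mOsm replicate 2 (0.39, adjusted p = 0.0558). At 500 mOsm the difference from iso-osmolar medium was 0.29 (adjusted p = 0.166), and between the intensities 0.23 (adjusted p = 0.259). The ratio of Il6st to Osmr in FPKM was 19.3 to 23.1 in iso-osmolar medium, 17.6 to 21.9 at 500 mOsm and 10.9 to 13.6 at 600 mOsm, lowest in every library at 600 mOsm.

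Lifr (ENSMUSG00000054263, chr15:7129559-7197489, plus strand), the chain for Lif and Clcf1, was barely expressed, between 0.10 and 0.183 FPKM in all 9 libraries, from 21 to 41 reads. Its conditions overlapped throughout. The log2 fold changes were 0.01 at 500 mOsm (95% confidence interval -0.58 to 0.58, adjusted p = 0.992) and 0.20 at 600 mOsm (-0.37 to 0.78, adjusted p = 0.595), so changes of that size could not be told from none at this depth. Osmr and Lifr are neighbours on chromosome 15, 254589 bases apart, with no gene of the deposited data lying wholly between them.

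Stat3 (ENSMUSG00000004040, chr11:100885098-100939540, minus strand), the transcription factor that gp130 activates, was nearly level. It stood at 16.0, 15.4 and 14.2 FPKM in iso-osmolar medium, 16.2, 16.1 and 16.9 FPKM at 500 mOsm, and 14.8, 14.9 and 13.4 FPKM at 600 mOsm. The libraries at 500 mOsm were the highest and did not overlap those at 600 mOsm, whereas iso-osmolar medium and 600 mOsm overlapped. Against iso-osmolar medium the log2 fold change was 0.12 at 500 mOsm (95% confidence interval -0.01 to 0.24, adjusted p = 0.158) and -0.06 at 600 mOsm (-0.19 to 0.06, adjusted p = 0.422). Stat3 was 1.13-fold lower at 600 than at 500 mOsm (-0.18, standard error 0.0566, adjusted p = 0.032), and that call was lost without any filter (adjusted p = 0.0974) and without any 1 of the 3 libraries at 500 mOsm or of replicates 1 and 3 at 600 mOsm (adjusted p between 0.0547 and 0.127). Stat3 shares 72 exon bases with Stat5a on the opposite strand, and the strand setting of the counting is not given in the sources used here, so reads there cannot be assigned. RNA level says nothing of the phosphorylation that activates the protein, which these libraries do not measure.

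Socs3 (ENSMUSG00000053113, chr11:117966079-117970047, minus strand), the feedback inhibitor that binds gp130 and its kinases, rose under low-intensity stress. Its level was 8.43, 9.81 and 9.46 FPKM in iso-osmolar medium, 19.6, 19.5 and 17.3 FPKM at 500 mOsm, and 10.1, 10.2 and 13.2 FPKM at 600 mOsm. Every library at 500 mOsm stood above all others, and replicate 3 was the highest at 600 mOsm. Socs3 was 2.04-fold higher at 500 mOsm than in the iso-osmolar libraries (log2 fold change 1.03, standard error 0.113, adjusted p = 1.9e-05) and 1.66-fold lower at 600 than at 500 mOsm (-0.73, standard error 0.112, adjusted p = 0.000343). At 600 mOsm its difference from iso-osmolar medium was 0.30 (standard error 0.115, adjusted p = 0.0618), although the libraries did not overlap. Replicate 3 at 600 mOsm carried much of that difference. Without it the log2 fold change was 0.14 (adjusted p = 0.297), whereas the difference passed without 600 mOsm replicate 1 (0.37, adjusted p = 0.0486) or replicate 2 (0.37, adjusted p = 0.0339), and with no filter on low counts (adjusted p = 0.00436). The summed endothelial and epithelial markers were also highest at 500 mOsm, and their part in this result was not tested.

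Socs2 (ENSMUSG00000020027, chr10:95385362-95417180, minus strand), an inhibitor best known for growth hormone signalling, was barely expressed, from 12 to 25 reads a library. Its mean level was 0.143 ± 0.0128 FPKM (SD, n = 3) without added sucrose. With stress it was 0.212 ± 0.0263 FPKM (SD, n = 3) under low intensity and 0.176 ± 0.0340 FPKM (SD, n = 3) under high intensity. The libraries at 500 mOsm lay above those in iso-osmolar medium, but the log2 fold change of 0.56 (95% confidence interval 0.00 to 1.12) did not pass the test (adjusted p = 0.13). The other comparisons gave 0.30 (600 mOsm against iso-osmolar, adjusted p = 0.437) and -0.25 (between the intensities, adjusted p = 0.493).

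In FPKM, which depends on the deposited gene lengths, the order of the members changed with stress. In iso-osmolar medium it ran Il6st (33.3 FPKM), Lif (32.6), Clcf1 (29.0), Stat3 (15.2), Socs3 (9.23), Il11 (7.84), Osmr (1.54), Socs2 (0.143) and Lifr (0.135), and neighbours overlapped only for Il6st with Lif and for Socs2 with Lifr. At 500 mOsm Socs3 (18.8 FPKM) stood above Stat3 (16.4), and Lif (4.92) stood just above Il11 (3.29), with no overlap between neighbours. At 600 mOsm Stat3 (14.4 FPKM), Clcf1 (12.4) and Socs3 (11.2) followed Il6st (26.0), of which Clcf1 and Socs3 overlapped, and Il11 (0.561) had dropped below Osmr (2.17).

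**Figure D4:**
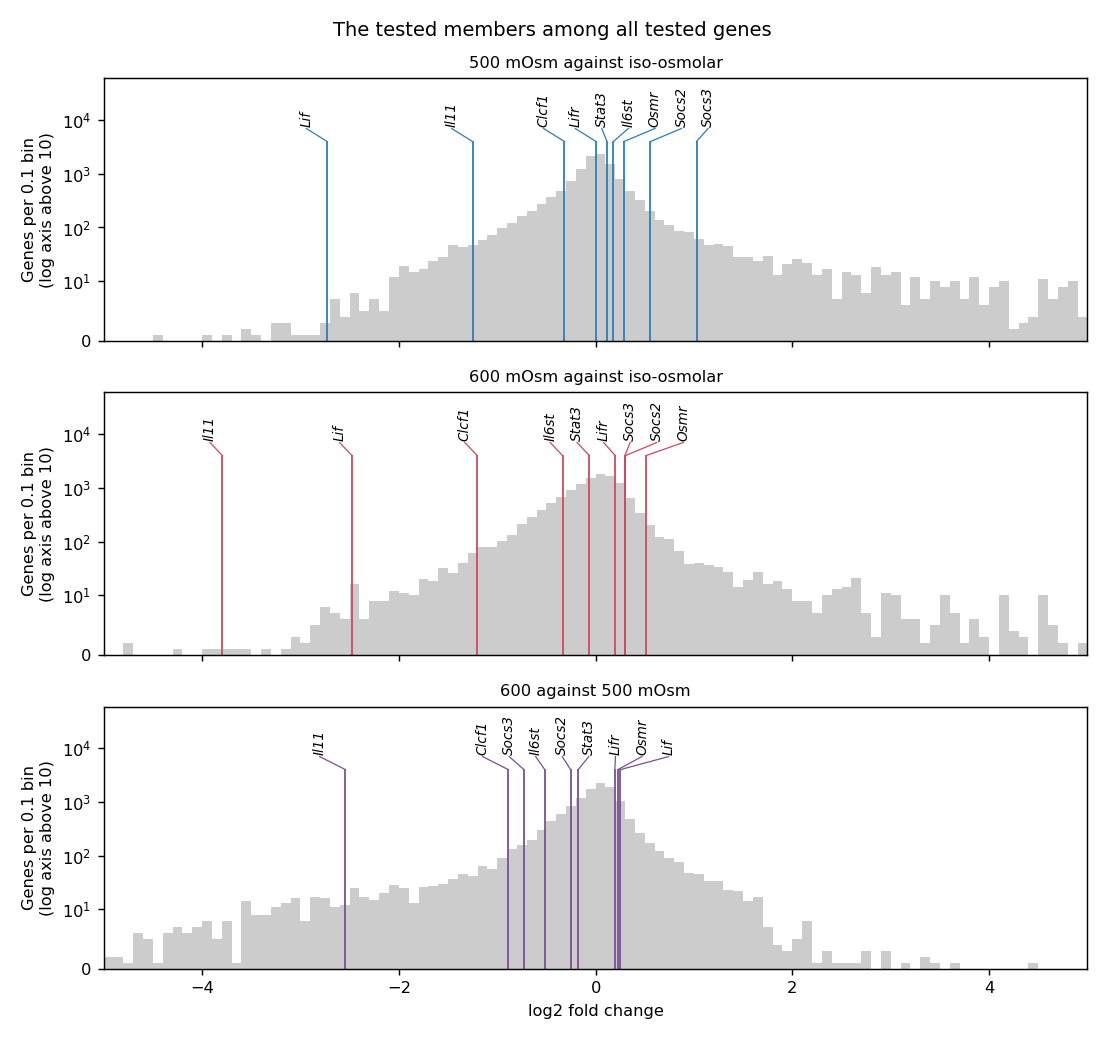
Number of tested genes per 0.1 of log2 fold change (grey bars, vertical axis logarithmic above 10) in each comparison, with the 9 tested members marked by lines, and horizontal axes drawn from -5 to 5. Lif and Il11 sit in the left tail against iso-osmolar medium (-2.73 and -1.25 at 500 mOsm, -2.48 and -3.79 at 600 mOsm). Clcf1 also does at 600 mOsm (-1.20), and most other members lie within the central mass.

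Over the 9 libraries, the genes whose log2 CPM followed that of Lif most closely, of 13081 compared, included Dusp5 (Pearson's r = 0.9941) and Cdk17 (0.9931). Dusp5, a nuclear Erk phosphatase, averaged 65.2 FPKM in iso-osmolar medium, 11.9 FPKM at 500 mOsm and 15.6 FPKM at 600 mOsm. For Stat3 the closest were Gm9958 (r = 0.9693), Fat2 (0.967) and Camk2b (0.953), each below 1 FPKM on average. These coefficients rest on 3 conditions of 3 libraries each and mainly describe the condition means.

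The rest of the pathway was read from 80 further genes, of which 63 were tested. At 500 mOsm 15 were higher and 14 lower than in iso-osmolar medium (46.0% called, against 28.0% of all genes), with a median log2 fold change of 0.02. At 600 mOsm 6 were higher and 27 lower (52.4% against 35.1%), with a median of -0.17. Between the intensities 9 were higher and 25 lower at 600 mOsm (54.0% against 29.1%), with a median of -0.24.

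Among the other ligands, Ctf1 (cardiotrophin-1) was tested and was not called in any comparison. Osm, which encodes oncostatin M, lies upstream of Lif on chromosome 11 on the same strand, 16530 bases away. No gene of the deposited data lies wholly between them. Osm had no read in any iso-osmolar library, 10, 10 and 13 reads at 500 mOsm, and 0, 1 and 0 reads at 600 mOsm. It did not pass the filter. Its highest level was 0.221 FPKM, at 500 mOsm. Il31ra, the interleukin-31 receptor gene, lies 12723 bases from Il6st on the opposite strand and likewise had 9, 7 and 10 reads at 500 mOsm, against 0, 0 and 1 in iso-osmolar medium and 1, 0 and 1 at 600 mOsm.

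Of the ligand-specific receptors, Il6ra, which binds interleukin-6, was 1.5-fold lower at 500 mOsm (mean 3.16 to 2.11 FPKM, log2 fold change -0.58, adjusted p = 0.000674) and 1.47-fold lower at 600 mOsm (mean 2.13 FPKM, -0.55, adjusted p = 0.00103). Il11ra1, the interleukin-11 receptor, was higher at 500 mOsm (0.26, adjusted p = 0.0219) and at 600 mOsm (0.34, adjusted p = 0.00451), from 6.73 FPKM to 8.06 and 8.41. The 500 mOsm call was lost without iso-osmolar replicate 1 or 3 or 500 mOsm replicate 2, and its near-identical copy Il11ra2 is listed with 0 reads in every library, so how reads common to both were counted is uncertain. Cntfr, the chain for Clcf1, had 1 to 6 reads in every library and was not tested. Il27ra, the interleukin-27 receptor, was higher at 600 mOsm than in the iso-osmolar libraries (2.52, adjusted p = 0.0019) from 10 reads to 60 reads over 3 libraries.

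The kinases that gp130 carries were close to level. With rising osmolarity, Jak1 averaged 18.1, 17.2 and 16.2 FPKM, Tyk2 4.47, 4.81 and 5.22 FPKM, and Jak2 0.868, 0.991 and 0.817 FPKM. None of the 3 was called in any comparison, with adjusted p between 0.0565 and 0.824. Of the 9 kinases and other Stat factors, 3 were higher and 1 lower at 500 mOsm (44.4% called, against 28.0% of all genes). At 600 mOsm 1 was higher (11.1% against 35.1%). Of 6 adaptors of the Erk branch, 5 were lower at 600 than at 500 mOsm and none was higher, beside 17.2% of all genes lower. For Gab2, a docking adaptor and 1 of those 5 (log2 fold change -0.90, adjusted p = 0.0429), that call was lost in DESeq2 (adjusted p = 0.182) and under most other alternatives, the omission of any 500 mOsm library among them (adjusted p between 0.0793 and 0.0962). Gab2 was also higher at 500 mOsm than in the iso-osmolar libraries (log2 fold change 1.21, adjusted p = 0.012) at a low level of 0.165 FPKM, a call lost without iso-osmolar replicate 1 (adjusted p = 0.0531) and in DESeq2 (adjusted p = 0.0558).

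Among 12 tested inhibitors other than the members, calls at 500 mOsm numbered 1 higher and 4 lower (41.7%, against 28.0% of all genes). Those at 600 mOsm numbered 2 higher and 7 lower (75% against 35.1%). Both comparisons are with iso-osmolar medium. Socs1, which inhibits the Janus kinases directly and is a close relative of Socs3, moved in the opposite direction to Socs3 at 500 mOsm. Its level was 25.1, 31.9 and 30.7 FPKM in iso-osmolar medium, 6.00, 7.66 and 6.55 FPKM at 500 mOsm, and 12.8, 10.3 and 18.1 FPKM at 600 mOsm, with no overlap between conditions. Socs1 fell 4.33-fold at 500 mOsm (log2 fold change -2.11, standard error 0.186, adjusted p = 2.66e-06) and 2.09-fold at 600 mOsm (-1.06, standard error 0.175, adjusted p = 0.000542). The phosphatase Ptpn6 was higher at 500 mOsm than in the iso-osmolar libraries (1.13, adjusted p = 0.0195) and lower at 600 than at 500 mOsm (-1.30, adjusted p = 0.0106), at 0.432 FPKM or less on average. The 500 mOsm call of Ptpn6 was lost in DESeq2 (adjusted p = 0.0849) and without iso-osmolar replicate 1 or 3 or 500 mOsm replicate 2 (adjusted p between 0.0538 and 0.0852), and the call between the intensities without 600 mOsm replicate 3 (adjusted p = 0.0552).

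**Figure D5:**
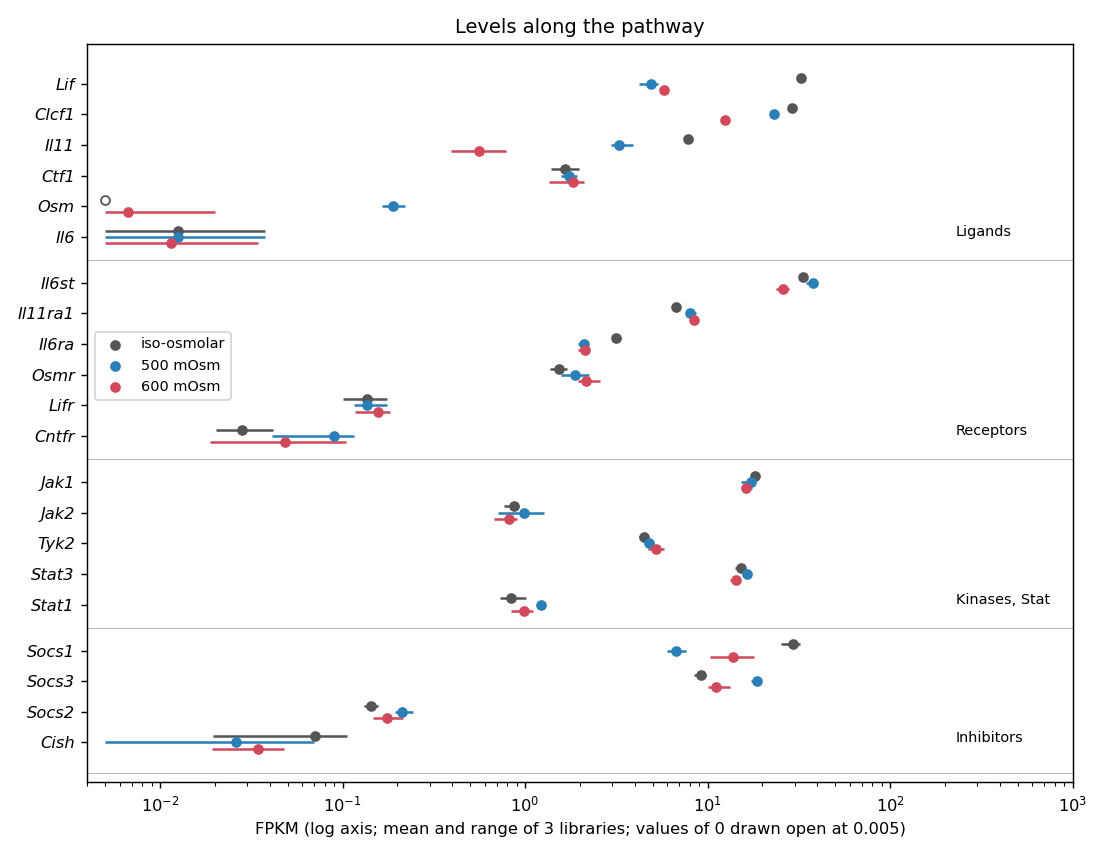
Mean FPKM (points) and range of 3 libraries (lines) on a logarithmic axis for ligands, receptors, kinases with Stat factors, and inhibitors, with values of 0 drawn at 0.005. Lif and Socs1 separate widely between iso-osmolar medium and 500 mOsm (32.6 to 4.92 and 29.3 to 6.74 FPKM), while Jak1 and Stat3 lie nearly on top of each other across conditions.

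Genes known as Stat3 targets in other cells went in both directions. Of 17 tested, 5 were higher and 6 lower at 500 mOsm (64.7% called, against 28.0% of all genes). At 600 mOsm 7 were lower and none higher (41.2% against 35.1%). Directly between the intensities, 4 stood higher and 7 lower at 600 mOsm (64.7% against 29.1%). Many of them also answer to other pathways, and Fos and Junb are immediate early genes. Fos rose 14.1-fold at 500 mOsm (log2 fold change 3.81, adjusted p = 6.07e-11) and Junb 2.65-fold (1.41, adjusted p = 9.34e-09), while at 600 mOsm Fos was at -0.17 (adjusted p = 0.381) and Junb fell by 0.35 (adjusted p = 0.00112). Pim1, a survival kinase gene, rose 2.48-fold at 500 mOsm (1.31, adjusted p = 2.78e-06) and was lower at 600 than at 500 mOsm (-1.23, adjusted p = 6.28e-06). Vegfa, the vascular growth factor, fell at both intensities, by 0.79 (adjusted p = 4.91e-07) and by 2.13 (adjusted p = 2.74e-10) on the log2 scale. Myc fell at 600 mOsm against iso-osmolar medium (-1.42, adjusted p = 4.99e-09) and against 500 mOsm (-1.46, adjusted p = 2.15e-09). Hp, haptoglobin, was higher at 500 mOsm (1.92, adjusted p = 0.029) on 109 reads over 3 libraries against 26, and that call was lost without iso-osmolar replicate 2 or 3 or 500 mOsm replicate 3 (adjusted p between 0.0876 and 0.105).

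Factors known to control Il6 transcription or mRNA decay were measured as well. Of 12 tested, 3 were higher and 2 lower at 500 mOsm (41.7% called, against 28.0% of all genes). At 600 mOsm 8 were lower and none higher (66.7% against 35.1%). Nfkbiz, a coactivator of Il6, rose 1.98-fold at 500 mOsm (log2 fold change 0.99, adjusted p = 5.72e-05) and fell 5.64-fold at 600 mOsm (-2.50, adjusted p = 1.57e-07), and its libraries did not overlap between conditions. Nfat5, which binds the tonicity element, was at 0.31 (adjusted p = 0.14) at 500 mOsm and fell by 0.90 (adjusted p = 0.000609) at 600 mOsm. Arid5a, which stabilizes Il6 mRNA, fell at both intensities (-1.45, adjusted p = 9.46e-08, and -1.32, adjusted p = 2.52e-07). Of the decay factors, Zfp36 rose 3.36-fold at 500 mOsm (1.75, adjusted p = 5.58e-08) and Zc3h12a (Regnase-1) 1.61-fold (0.68, adjusted p = 0.00113), whereas Zfp36l2, the most abundant of those named, fell from 139 to 103 FPKM on average (-0.42, adjusted p = 0.0061) and Zfp36l1 was at 0.42 (adjusted p = 0.0784). Against iso-osmolar medium at 600 mOsm, Zfp36l1 fell by 1.18 (adjusted p = 0.000262), Zfp36l2 by 1.73 (adjusted p = 1.05e-07) and Zc3h12a by 0.49 (adjusted p = 0.0146) on the log2 scale, the last a call lost without iso-osmolar replicate 3 or 600 mOsm replicate 2. Zfp36 at 600 mOsm was at -0.23 against iso-osmolar medium (adjusted p = 0.111) and was lower than at 500 mOsm (-1.98, adjusted p = 2.39e-08). Il6 itself remained below the smallest signal in every condition.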

How the data were processed

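RNA-seq of C57Bl/6 MEFs in 3 conditions, with 3 libraries each, was analysed. The methods state poly-T enrichment, paired-end sequencing and alignment to mm10, and the submitters' processing notes name CASAVA 1.8 and STAR. The counting tool, its strand setting and the annotation are not given in the sources used here. The authors deposited raw read counts per gene and FPKM made from them with the gene length. The table also holds the authors' own fold changes and p-values, which were not used. Replicates were not pooled.

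For the tests, edgeR 4.0.16 (R 4.3.3) was run on the raw counts with TMM factors, filterByExpr and the quasi-likelihood test. A single fit held all 9 libraries, with no covariate. The Benjamini-Hochberg adjustment covered the 13082 genes that passed the filter. Called means an adjusted p under 0.05. Script steps were tested on simulated data. Alternatives were RLE factors, library size alone, no filter, at least 10 counts in every library, DESeq2 1.42.0, only the 2 groups compared, a replicate block, limma 3.58.1 on log2(FPKM + 1) or log2(FPKM + 0.1), and the omission of single libraries. A count of 3 was taken as the smallest signal, which covers counting error only, as reads carry no molecular identifiers.

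The members and the lists of pathway genes and markers were chosen with earlier results of these data known. Pathway genes named by rule are Il6ra, Il11ra1, Cntfr, Jak1, Jak2 and Tyk2 and every listed gene that was called with a log2 fold change of 1 or more in size in any comparison. Ctf1, Osm and Il31ra were named after their values were seen. Genes with patterns like Lif or Stat3 are among the 3 with the highest Pearson's r of log2 CPM. Some genes are not reported here. Promoters came from RefSeq (GRCm38.p6) and 3′ parts from the longest GENCODE M21 transcript.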

Additional observations from a re-analysis of the deposited data

How the results depend on the processing

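The numbers of family members and of other pathway genes called stayed within 1.5 times their reported values under each of the 18 alternatives. When single libraries were omitted, the members called ranged from 4 to 5 at 500 mOsm against iso-osmolar medium, from 4 to 6 at 600 mOsm against iso-osmolar medium and from 4 to 6 between the intensities. The other pathway genes called ranged from 25 to 31, from 30 to 35 and from 30 to 35. The log2 fold change of Lifr at 500 mOsm, which lies near 0 and was never called, turned negative with no filter (-0.013), with the replicate block (-0.003), without iso-osmolar replicate 1 (-0.169) or 2 (-0.019) and without 500 mOsm replicate 1 (-0.202), and over all omissions of 1 library ranged from -0.202 to 0.226. Its cause was not tested. No other member changed direction in any comparison. Calls of Il6st at 500 mOsm, and of Lif and Stat3 between the intensities, were lost under several alternatives, and with the replicate block their adjusted p was 0.0648, 0.0526 and 0.0521. Same-numbered libraries did not deviate together (mean r = -0.0847 over 9 pairs of libraries, against 0.0425 over 18 differently numbered pairs). No pairing by number was seen, but paired cultures with little shared deviation would look the same, so the values cannot decide this. With the block, 3111, 3798 and 3089 genes were called at 500 mOsm, at 600 mOsm and between the intensities, against 3659, 4594 and 3810. With no filter, 53.5% of the calls at 500 mOsm were higher, against 47.2%. Depth limited Il6, Lifr, Socs2, Osm and Cntfr, with few reads in each library.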
